A study of Mus musculus with 2 samples.

Results

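Natural killer (NK) and type 1 innate lymphoid (ILC1)-like cells that carried transcripts of granzymes C to G were examined in mouse fibrosarcomas, malignant tumours of fibroblasts that grew under the skin after implantation of syngeneic tumour cells. Members were chosen by their counts of unique molecular identifiers (UMIs), each of which stands for 1 captured transcript. A barcode was kept as a cell from 300 detected genes and 500 UMIs upwards, provided that no more than 20% of its UMIs were mitochondrial. An NK-gated cell was a kept cell with at least 2 UMIs of the NK receptor genes Ncr1, Klrb1c and Klre1 together, at most 1 UMI of the T cell genes Cd3d, Cd3e and Cd3g, 0 UMIs of Cd8b1 and under 0.1% of its UMIs from the complement genes C1qa, C1qb and C1qc. A member was an NK-gated cell with at least 3 UMIs of Gzmc, Gzmd, Gzme, Gzmf and Gzmg together. The gate gave 121 members among 20602 kept cells of 21532 barcodes, with 56 in the library titled Blood and 65 in the library titled Control. They were set against the 511 NK-gated cells with 0 UMIs of granzymes C to G, of which 256 were titled Blood and 255 titled Control. The remaining 60 NK-gated cells, 30 in each library, had 1 or 2 such UMIs and were in neither population.

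The study compared implanted fibrosarcomas of wild-type C57BL/6 mice that had been injected with autologous erythrocytes in buffered saline or with saline alone. Tumours were digested with collagenase b and DNase I, freed of red cells by lysis and profiled by droplet sequencing with 10x Genomics 3' v3 reagents, in which reads fall near transcript ends. There was 1 library per group. The library titled Blood carries the treatment label "PBS injected" and the library titled Control carries "Erythrocyte injected", so titles and treatment labels contradict each other. Libraries are therefore called by title only, no direction is assigned to a treatment, and the number of animals behind each library is not given in the sources used here. With 1 library per group, differences between titles have no replicate check and no p-value. All intervals are exact 95% intervals and cover counting error only.

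The libraries held 115066023 UMIs titled Blood and 115272096 titled Control. They had 349 barcodes in common, of which 324 held at least 10 times more UMIs in 1 library than in the other. Among members, 6 cells titled Blood had a barcode that was also present in the library titled Control, and 0 members titled Control had one in the library titled Blood. In 5 of these 6 cells the library titled Blood held 22619 to 45458 UMIs and 1602 to 4767 granzyme C to G UMIs, while the same barcodes titled Control held 534 to 899 UMIs and 40 to 101 granzyme C to G UMIs. The 6 cells carried 67.0% of all granzyme C to G UMIs of members titled Blood. Levels of the main genes in members titled Blood are given both ways.

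Granzymes are serine proteases that cytotoxic lymphocytes store in granules and release onto target cells, together with the pore-forming protein perforin (Prf1). Granzymes A and B are the common forms of resting and activated NK cells, while granzymes C to G are rodent genes known from strongly stimulated cytotoxic lymphocytes, uterine NK cells and some tissue ILC1. The 5 genes lie on the minus strand of chromosome 14 in the order Gzme, Gzmd, Gzmg, Gzmf and Gzmc, with Ctsg, Gzmn and Gzmb in the same cluster. From the end of Ctsg to the start of Gzmb the cluster spans 162 kb (chr14:56099881-56262260, GRCm38, GENCODE M21). Gzmc itself lies at chr14:56231441-56234656.

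The promoters of the cluster are shown because several of its genes were detected together in some of the members. Each line gives the 200 bases before the start of the gene on the minus strand of chromosome 14, from RefSeq on GRCm38.p6. Capitals mark the RUNX letters TGTGGT and the cyclic-AMP response element (CRE) letters TGACGTCA, searched on both strands, and the 2 motifs did not overlap.
Gzmc, chr14:56234658-56234857: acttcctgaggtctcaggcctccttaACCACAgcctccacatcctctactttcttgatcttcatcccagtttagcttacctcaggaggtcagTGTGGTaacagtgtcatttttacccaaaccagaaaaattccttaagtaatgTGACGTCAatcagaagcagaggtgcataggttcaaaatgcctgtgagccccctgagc
Gzmd, chr14:56132594-56132793: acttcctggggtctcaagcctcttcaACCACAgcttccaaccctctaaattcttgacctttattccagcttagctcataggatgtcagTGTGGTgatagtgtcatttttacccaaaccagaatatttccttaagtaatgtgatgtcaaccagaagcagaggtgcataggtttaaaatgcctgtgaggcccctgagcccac
Gzmf, chr14:56211408-56211607: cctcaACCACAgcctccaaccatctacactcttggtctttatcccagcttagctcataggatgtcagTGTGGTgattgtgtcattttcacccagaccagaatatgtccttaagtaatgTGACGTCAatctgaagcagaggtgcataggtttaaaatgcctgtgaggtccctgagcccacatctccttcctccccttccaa
Gzmb, chr14:56262335-56262534: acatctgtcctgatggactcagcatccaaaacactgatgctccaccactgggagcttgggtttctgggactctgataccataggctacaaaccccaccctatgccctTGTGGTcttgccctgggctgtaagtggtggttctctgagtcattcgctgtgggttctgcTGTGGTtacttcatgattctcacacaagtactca

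Over windows of 250 bases before to 50 bases after the start, the promoters of Gzmc, Gzmd, Gzme, Gzmf and Gzmg were 86.1% to 93.98% identical in pairs. Each of the 5 held 2 RUNX matches, as did Gzmb, while 16.8% of all 32851 RefSeq promoters of that length held at least 1. The CRE letters stood 57 bases before the start of Gzmc, 82 before Gzmf and 77 before Gzmg, and 1.79% of all promoters held them. The nearest stretch differed from these letters at 1 base in Gzmd, Gzme and Gzmb, as it did, or fully matched, in 12.5% of all promoters. Neither the STAT letters TTCNNNGAA, held by 8.30% of promoters, nor the T-box letters AGGTGTGA, held by 1.28%, were in the windows of the 5 genes. These matches describe letters only. The last 300 transcript bases, where such reads fall, were 89.1% to 95.4% identical in pairs among Gzmd, Gzme, Gzmf and Gzmg and 61.9% to 64.9% between Gzmc and those 4. Reads of Gzmd to Gzmg can therefore be shared or lost between them, and their single values are uncertain.

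Members made up 16.4% of NK-gated cells titled Blood (56 of 342, 12.6% to 20.7%) and 18.6% titled Control (65 of 350, 14.6% to 23.0%), a ratio of 0.882 (0.606 to 1.28). The ratio did not differ from 1 beyond counting error. After each cell was thinned to 2000 UMIs, the expected shares were 13.8% titled Blood and 14.95% titled Control, and without barcodes found in both libraries the shares were 14.9% titled Blood and 18.6% titled Control. Of all kept cells, members were 0.482% titled Blood (0.364% to 0.626%) and 0.723% titled Control (0.559% to 0.921%), a ratio of 0.666 (0.458 to 0.968). NK-gated cells as a whole had a like ratio of 0.756 (0.649 to 0.880), with 2.94% of kept cells titled Blood and 3.90% titled Control.

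The threshold of 3 granzyme UMIs cut through few cells. Just outside it, 7 NK-gated cells titled Blood and 7 titled Control had 2 granzyme UMIs. Just inside it, 2 members titled Blood and 0 titled Control had 3 UMIs, and 4 titled Blood and 2 titled Control had 4. Most members were far above it, since 43 titled Blood and 53 titled Control had at least 10. Members were also deeper cells than those lacking granzymes, with a median of 9266 UMIs titled Blood and 10677 titled Control, against 3886 titled Blood and 4547 titled Control in cells lacking them. Depth alone raises the chance of passing a UMI threshold, so shares of detection are given after thinning where stated, counts of cells with a UMI are not adjusted for depth, and levels are given as CPM, a gene's UMI count scaled to a common total of UMIs for each population.

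Free RNA was read from other gated cells. At least 1 granzyme C to G UMI was found in 6.27% of C1q-positive macrophage-gated cells titled Blood and 3.30% titled Control, at median depths of 12254 UMIs titled Blood and 13826 titled Control. Thinned to 2000 UMIs, these shares were 1.24% titled Blood and 0.655% titled Control, against 20.6% of NK-gated cells titled Blood and 21.9% titled Control, at median depths of 4449 UMIs titled Blood and 4950 titled Control before thinning. At the members' threshold of 3 UMIs, 0.267% of macrophage-gated cells titled Blood and 0.165% titled Control passed. Among CD8 T-gated cells, 4 of 639 titled Blood and 2 of 344 titled Control passed. Both gates took only cells without a UMI of the NK receptor genes. CD8 T cells that carried those receptors were therefore not counted here. Of all kept cells, 137 titled Blood and 115 titled Control passed. Members held 78.4% of all granzyme C to G UMIs of kept cells titled Blood and 82.9% titled Control. A further 23 cells titled Blood and 20 titled Control had the NK receptor and granzyme transcripts but at least 2 UMIs of CD3 genes, and the gate left them out.

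The label was checked against markers of NK cells, ILC1 and T cells. Nkg7, a granule membrane gene, was detected in all 56 members titled Blood and all 65 titled Control. Klrd1, which encodes CD94, was detected in 55 of 56 titled Blood and 65 of 65 titled Control. The gate itself limited CD3 transcripts. Of 17 T cell markers outside the gate, 8 had 0 UMIs in members titled Blood and 4 titled Control, and the list summed to 1047 CPM titled Blood and 1181 titled Control, against 1357 CPM titled Blood and 1319 titled Control in cells lacking granzymes. Of the list of ILC1 and tissue residency genes, 19 of 28 were measured in members, summing to 4116 CPM titled Blood and 4286 titled Control. Among these genes, Cd200r1, Cxcr6 and Zfp683 (Hobit) were at 4.90, 14.7 and 1.63 CPM in members titled Blood and at 0, 2.68 and 0 CPM in members titled Control. Il7r, the interleukin-7 receptor of most innate lymphoid cells, was at 29.4 CPM in members titled Blood and 16.1 titled Control. Itga1 encodes the collagen receptor CD49a of tissue ILC1 and uterine NK cells. It was detected together with Eomes, the NK lineage factor, in 20 members titled Blood and 23 titled Control. Eomes without Itga1 was found in 12 members titled Blood and 20 titled Control, and Itga1 without Eomes in 16 titled Blood and 11 titled Control. Among cells lacking granzymes, both genes were found in 27 of 256 titled Blood and 27 of 255 titled Control, at lower depth and without thinning. NK cells and ILC1 were not separated among the members.

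Granzyme content itself, which the gate selected on, varied widely between members and is given as a description. A member held 3 to 4767 granzyme C to G UMIs titled Blood (median 46) and 4 to 2493 titled Control (median 48). As a share of the cell's UMIs, this was 0.0483% to 10.7% titled Blood (median 0.752%) and 0.0331% to 11.4% titled Control (median 0.507%). The distributions overlapped over nearly their whole range. In both libraries a few cells held most of the transcripts, and the 5 highest members carried 66.0% of them titled Blood and 53.8% titled Control.

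**Figure D1:**
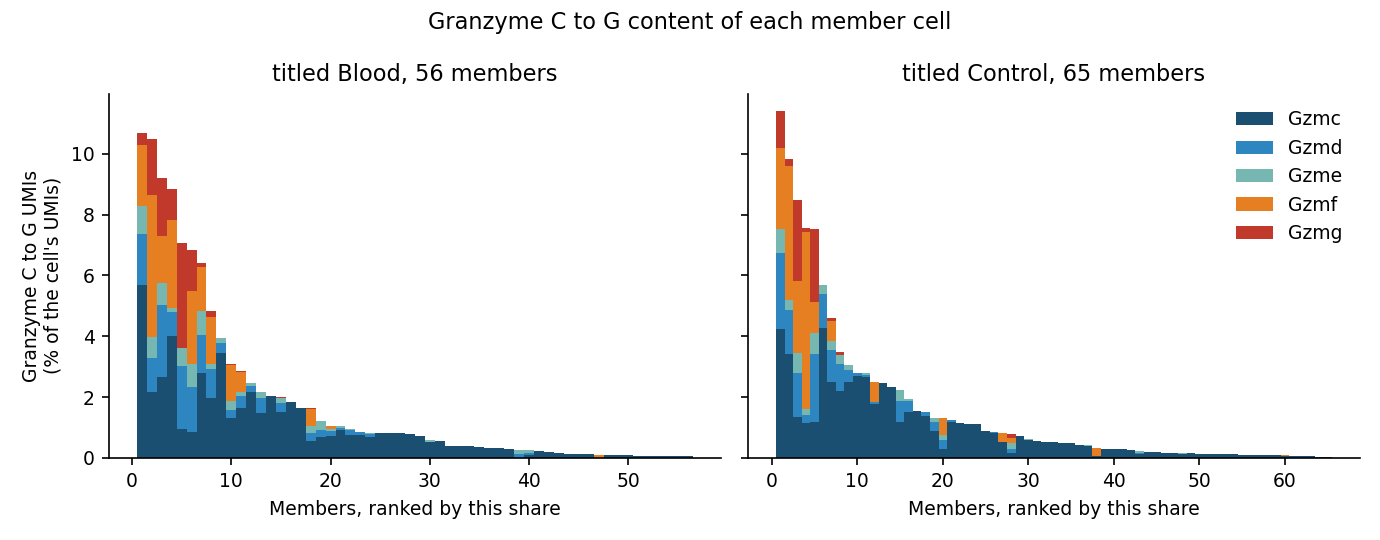
Granzyme C to G UMIs as a percent of each member's UMIs, with 1 bar per member ranked from high to low, split by gene, for 56 members titled Blood (left) and 65 titled Control (right). Gzmc is present in nearly every bar, while Gzmd to Gzmg are concentrated in the highest members, which reach 10.7% titled Blood and 11.4% titled Control.

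Gzmc was the common gene of the family. It was detected in 54 of 56 members titled Blood and 65 of 65 titled Control, at 13737 CPM titled Blood and 9467 titled Control. Gzmd was detected in 26 members titled Blood and 22 titled Control, at 5270 CPM titled Blood and 2869 titled Control. Gzme was found in 24 titled Blood and 23 titled Control, at 2430 CPM titled Blood and 983 titled Control. The last pair was rarer. Gzmf was in 14 members of each library, at 8800 CPM titled Blood and 3314 titled Control, with a median of 181 UMIs per positive cell titled Blood and 69.5 titled Control, against 44.5 titled Blood and 40 titled Control for Gzmc. Gzmg was in 14 titled Blood and 10 titled Control, at 4645 CPM titled Blood and 1526 titled Control. The summed levels titled Blood depended on the richest cells. Without the shared barcodes, which include the 5 richest members titled Blood, members titled Blood had 9361 CPM of Gzmc, 2367 of Gzmd, 1118 of Gzme, 2299 of Gzmf and 777 of Gzmg, of which only Gzme was above its level titled Control. With the 5 richest members left out of each library, all 5 genes were higher titled Blood, with Gzmc at 9498 CPM titled Blood and 7232 titled Control and Gzmf at 2243 CPM titled Blood and 759 titled Control.

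Detection of the rarer genes overlapped in part. Of members with Gzmg, 14 of 14 titled Blood and 10 of 10 titled Control also had Gzmd, while of those with Gzmf, 12 of 14 titled Blood and 10 of 14 titled Control had Gzmd and 11 of 14 titled Blood and 8 of 14 titled Control had Gzmg. Exactly 1 of the 5 genes was detected in 28 members titled Blood and 35 titled Control, and in 27 titled Blood and 35 titled Control of these it was Gzmc. All 5 were detected in 11 members titled Blood and 7 titled Control. These cells had a median of 1358 granzyme UMIs titled Blood (171 to 4767) and 779 titled Control (31 to 2493). Cells with 1 gene had a median of 10.5 titled Blood and 16 titled Control. Low content limits detection of the rarer genes, so detection was also read among cells with at least 50 Gzmc UMIs. Of these, 13 of 26 titled Blood and 8 of 30 titled Control had Gzmf, and the rest had none.

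Ctsg, the neighbouring gene for cathepsin G, a protease best known from neutrophils and monocytes, appeared only in members with all 5 granzymes. It was detected in 4 members titled Blood and 3 titled Control, at 255 CPM titled Blood and 87.1 titled Control. No UMI was found in NK-gated cells lacking granzymes. A single cell carried 93.6% of its UMIs titled Blood and 55.4% titled Control. Without the shared barcodes Ctsg was at 2.26 CPM in members titled Blood. Gzmn, another gene of the cluster, had 2 UMIs in members titled Blood and 1 titled Control.

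**Figure D2:**
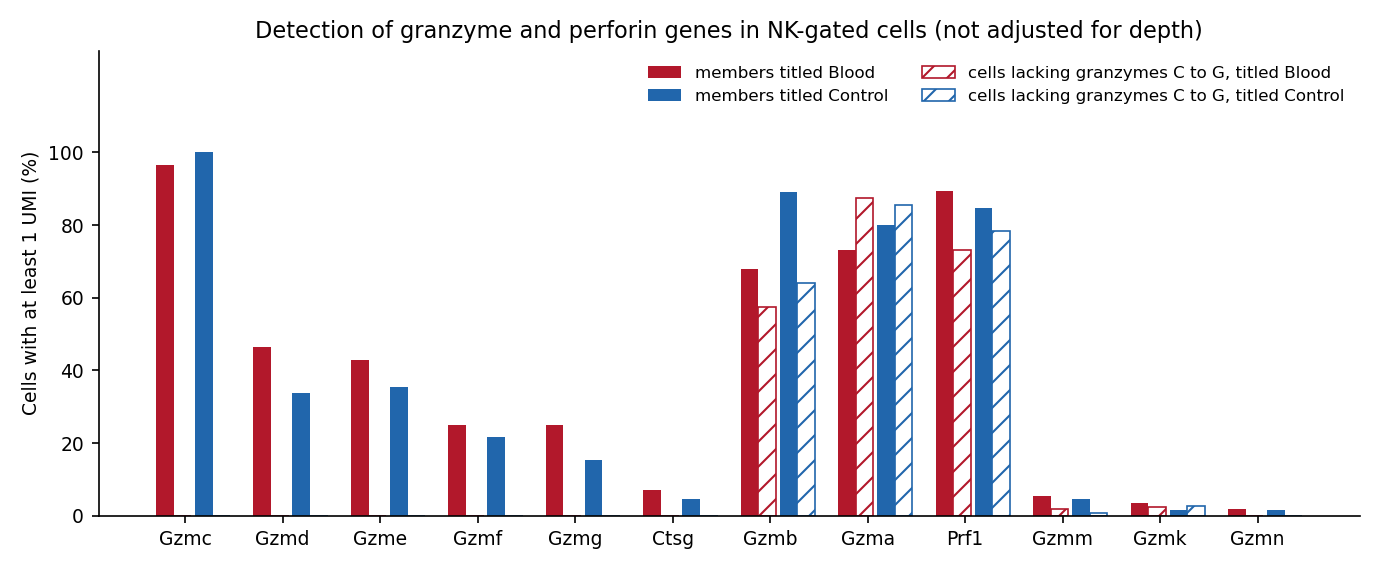
Percent of cells with at least 1 UMI of each granzyme gene, Ctsg and Prf1, in members (filled) and NK-gated cells lacking granzymes C to G (hatched) of each library, not adjusted for depth. Gzmc to Gzmg and Ctsg are at 0 in the hatched bars, the first 5 by the gate, while Gzmb, Gzma and Prf1 are common in both populations.

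The other granule genes were shared with NK cells that lacked granzymes C to G. Gzma was at 3588 CPM in members titled Blood and 3286 titled Control, against 4801 CPM titled Blood and 4952 titled Control in cells lacking them, which gave ratios of 0.747 (0.711 to 0.785) titled Blood and 0.663 (0.633 to 0.695) titled Control. Gzmb, which encodes the main caspase-activating granzyme, was at 1514 CPM in members titled Blood and 1923 titled Control, against 680 CPM titled Blood and 1293 titled Control. Without the shared barcodes members titled Blood had 1208 CPM of Gzmb and 2534 CPM of Gzma. The ratio of Gzmb was 2.23 (2.03 to 2.45) titled Blood and 1.49 (1.39 to 1.60) titled Control. Its log2 ratio was 0.88 titled Blood and -0.38 titled Control with equal weight over bins of UMIs per cell, and 0.18 titled Blood and -0.03 titled Control without cells carrying RNA of other cell types, so the direction turned titled Control. Gzmb detection after thinning was 51.2% titled Blood and 69.7% titled Control in members, against 44.7% titled Blood and 51.3% titled Control in cells lacking granzymes. Prf1 was at 890 CPM titled Blood and 763 titled Control in members, against 539 CPM titled Blood and 579 titled Control, and neither ratio reached 2-fold. It was at 626 CPM in members titled Blood without the shared barcodes. Gzmk and Gzmm, granzymes of T cells and other NK subsets, stayed at or below 6.63 CPM in both populations. Of 18 measured genes in a list of other granule and killing genes, 0 were past 2-fold in both libraries, with a median log2 ratio of 0.14 titled Blood and -0.11 titled Control. Lists were read over the 7463 genes that passed a lower filter of 10 CPM and 10 UMIs, of which 0.764% were past 2-fold higher and 3.73% lower in members of both libraries, with medians of -0.28 titled Blood and -0.19 titled Control.

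Across the transcriptome, members were compared with NK-gated cells lacking granzymes C to G within each library. Log2 ratios were taken of CPM plus 5, and a gene was called where it was past 2-fold in the same direction in both libraries. Of 2877 genes with at least 50 CPM in either population and 30 UMIs in each library, leaving out the genes of the gate, 23 were higher in members (0.799%) and 120 were lower (4.17%). Members were also the deeper cells, so cells were also weighted equally over bins of UMIs per cell. Only bins with at least 5 members and at least 5 cells lacking granzymes in a library were used. With that weighting 9 genes were higher and 106 lower. Members in other bins dropped out, so these counts do not give the part of depth alone.

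**Figure D3:**
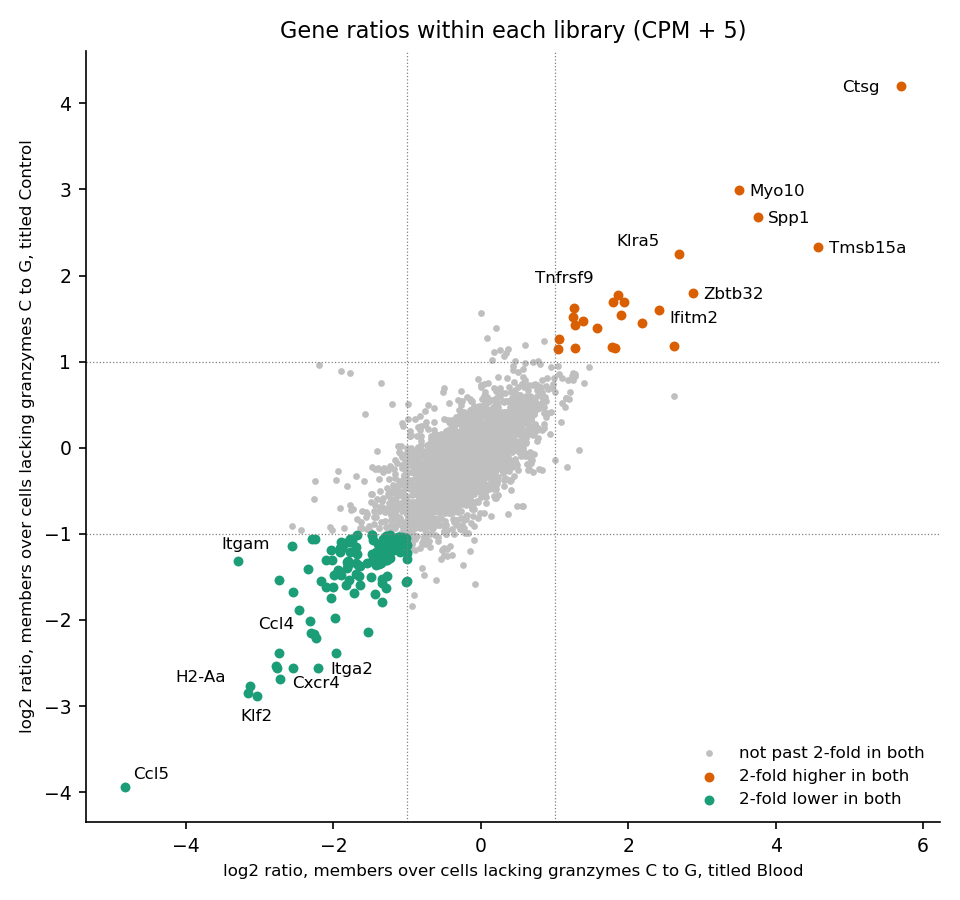
Log2 ratios of members over NK-gated cells lacking granzymes C to G for 2877 genes, titled Blood on the horizontal axis and titled Control on the vertical axis, with dotted lines at 2-fold. Orange marks the 23 genes higher and green the 120 genes lower in members of both libraries; Ctsg, Tmsb15a, Spp1 and Myo10 lie furthest out on the higher side and Ccl5 on the lower side.

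Spp1, the gene for osteopontin, a secreted adhesion protein and cytokine, was, with all cells kept, the most abundant gene among those higher in members. It was at 2004 CPM in members titled Blood and 1252 titled Control, against 144 CPM titled Blood and 191 titled Control in cells lacking granzymes. The ratios were 13.96 (11.9 to 16.4) titled Blood and 6.57 (5.72 to 7.56) titled Control. After thinning, 45.5% of members titled Blood and 43.0% titled Control carried Spp1, against 10.8% titled Blood and 10.4% titled Control of cells lacking granzymes. Without the shared barcodes Spp1 was at 1301 CPM in members titled Blood, below Ifitm2 at 1443 CPM. With equal weight over bins of UMIs per cell the log2 ratio was 2.60 titled Blood and 0.92 titled Control, below 2-fold in the second. Spp1 was highest in the members richest in granzymes. It was detected in 20 of 21 members titled Blood and 19 of 24 titled Control with more than 1% of UMIs from granzymes C to G, against 15 of 35 other members titled Blood and 25 of 41 titled Control. Its level was 3322 CPM titled Blood and 2543 titled Control in the richer members, against 323 CPM titled Blood and 372 titled Control in the others. NK-gated cells above 0 and up to 0.1% had 644 CPM titled Blood and 615 titled Control, and the bins between 0.1% and 1%, with under 20 cells each, had 213 to 251.2 CPM titled Blood and 250.7 to 306 titled Control.

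Tnfrsf9, the costimulatory receptor 4-1BB, was at 637 CPM in members titled Blood and 563 titled Control, against 172 CPM titled Blood and 161 titled Control, with ratios of 3.70 (3.13 to 4.40) titled Blood and 3.49 (2.96 to 4.13) titled Control. It was at 495 CPM in members titled Blood without the shared barcodes. Thy1, a surface glycoprotein also found on activated NK cells and fibroblasts, was at 609 CPM titled Blood and 474 titled Control in members, against 231 CPM titled Blood and 168 titled Control. Il2ra, the high-affinity chain of the interleukin-2 receptor, was at 71.9 CPM titled Blood and 32.1 titled Control in members, against 15.4 CPM titled Blood and 8.10 titled Control. Of 18 genes in the list of the interleukin-2 and interleukin-15 axis, Il2ra was higher and Socs3 and Pim1 lower in both libraries, with medians of -0.55 titled Blood and -0.46 titled Control. Zbtb32, a zinc finger repressor needed for NK cell proliferation in mouse infection, was at 55.5 CPM titled Blood and 73.7 titled Control in members, against 3.24 CPM titled Blood and 17.7 titled Control. Without barcodes found in both libraries, Zbtb32 was at 29.4 CPM in members titled Blood.

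Klra5, an inhibitory receptor of the Ly49 family, was at 94.7 CPM in members titled Blood and 92.4 titled Control, against 10.5 CPM titled Blood and 15.5 titled Control, with ratios of 8.98 (4.86 to 17.9) titled Blood and 5.98 (3.62 to 10.3) titled Control. It was confined to a minority, with a UMI in 10 of 56 members titled Blood and 11 of 65 titled Control. Lag3, a checkpoint receptor for MHC class II, was at 57.2 CPM titled Blood and 68.3 titled Control in members, against 21.1 CPM titled Blood and 20.6 titled Control. Ctla4, another checkpoint receptor, had ratios of 1.87 (1.36 to 2.57) titled Blood and 2.47 (1.85 to 3.31) titled Control. Of 17 measured inhibitory receptors and checkpoints, Klra5, Lag3 and Klrg1 were past 2-fold higher in both libraries and 0 were lower, with medians of -0.08 titled Blood and -0.06 titled Control. Klrg1, an inhibitory receptor of terminally mature NK cells, was at 116 CPM titled Blood and 45.5 titled Control in members, against 15.4 CPM titled Blood and 16.9 titled Control. It was at 38.4 CPM in members titled Blood without the shared barcodes, and its ratio reversed in both libraries when cells with RNA of other cell types were left out. Of 20 activating receptors and adaptors, 0 were higher and 1 lower in both libraries, with medians of -0.41 titled Blood and -0.45 titled Control.

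Other genes higher in members had structural or intracellular roles. Itga1 was at 176 CPM in members titled Blood and 130 titled Control, against 69.8 CPM titled Blood and 55.2 titled Control, with ratios of 2.53 (1.89 to 3.40) titled Blood and 2.35 (1.72 to 3.22) titled Control. Myo10, an unconventional myosin of filopodia, was at 98.0 CPM titled Blood and 64.3 titled Control in members, against 4.06 CPM titled Blood and 3.68 titled Control. Serpinb6a, an intracellular inhibitor of serine proteases including cathepsin G, was at 127 CPM titled Blood and 80.4 titled Control in members, against 33.3 CPM titled Blood and 21.4 titled Control, and at 58.7 CPM titled Blood without the shared barcodes. Ifitm2, an interferon-inducible membrane protein, was at 1581 CPM titled Blood and 1226 titled Control in members, against 293 CPM titled Blood and 401 titled Control. Tmsb15a, a thymosin that binds actin, was at 366 CPM titled Blood and 117 titled Control in members, against 10.5 CPM titled Blood and 19.1 titled Control, but a single member carried 49.4% of its UMIs titled Control, and without shared barcodes it was at 81.3 CPM titled Blood. C1qtnf6, Agpat5, Impa2, Fcrl6 and AA467197 were also among the 15 highest genes, with log2 ratios of 1.27 to 2.19 titled Blood and 1.40 to 1.69 titled Control. Fcrl6 was at 62.1 CPM in members titled Blood and at 27.1 CPM without the shared barcodes. With equal weight over bins of UMIs per cell, log2 ratios of several genes higher in members fell below 2-fold. Titled Control these included Ifitm2 (0.26), Tmsb15a (0.28), Zbtb32 (0.58), Agpat5 (0.65), Lag3 (0.73), Spp1 (0.92), Klrg1 (0.935) and Impa2 (0.98). Titled Blood they included Klrg1 (0.24), Ctsg (0.36), Impa2 (0.41) and Serpinb6a (0.69). Klra5 and Tnfrsf9 were the 2 genes of 23 that stayed past 2-fold higher in both libraries under all 15 alternative settings that could be compared.

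Of 8 measured chemokines 4 were lower in members of both libraries. Ccl5, which encodes RANTES, an abundant chemokine of NK cells and memory T cells, was at 136 CPM in members titled Blood and 252 titled Control, against 3999 CPM titled Blood and 3946 titled Control in cells lacking granzymes. Without the shared barcodes it was at 185 CPM in members titled Blood. The ratios were 0.0339 (0.0270 to 0.0421) titled Blood and 0.0638 (0.0549 to 0.0738) titled Control. Despite their greater depth, 9 of 56 members titled Blood and 22 of 65 titled Control had a Ccl5 UMI, against 214 of 256 titled Blood and 211 of 255 titled Control among cells lacking granzymes. Ccl4, which encodes MIP-1 beta, was at 232 CPM titled Blood and 280 titled Control in members, against 1107 CPM titled Blood and 1310 titled Control, and 1 member carried 63.4% of its UMIs titled Blood and 60.8% titled Control. Ccl3, for MIP-1 alpha, was at 119 CPM titled Blood and 54.9 titled Control in members, against 353 CPM titled Blood and 259 titled Control. The cytokine gene Ifng was at 50.6 CPM titled Blood and 88.4 titled Control in members, against 195 CPM titled Blood and 197 titled Control. With equal weight over bins of UMIs per cell, the log2 ratio of Ifng was -0.70 titled Blood and -0.39 titled Control. That of Ccl3 was -0.98 titled Blood and -1.56 titled Control, and of these values only the last was past 2-fold. Xcl1, for lymphotactin, differed little, at 1003 CPM titled Blood and 1325 titled Control in members and 948 CPM titled Blood and 1224 titled Control in cells lacking granzymes. The 4 lower chemokines were Ccl3, Ccl4, Ccl5 and Cxcl9, and 0 were higher in both, with medians of -1.54 titled Blood and -1.499 titled Control.

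Several genes of circulation and maturation were also lower. Klf2, the transcription factor that maintains trafficking of resting lymphocytes, was at 253 CPM in members of both libraries, against 2111 CPM titled Blood and 1903 titled Control in cells lacking granzymes, and at 332 CPM in members titled Blood without the shared barcodes. Its target S1pr1, a receptor that lets lymphocytes leave tissues, had 0 UMIs in members titled Blood and 1.34 CPM titled Control, against 39.7 CPM titled Blood and 33.9 titled Control. Cxcr4, a homing receptor for bone marrow and stroma, was at 71.9 CPM titled Blood and 71.0 titled Control in members, against 505 CPM titled Blood and 485 titled Control. Itga2, which encodes the mature NK marker CD49b, was at 9.80 CPM titled Blood and 5.36 titled Control in members, against 63.3 CPM titled Blood and 56.0 titled Control. Itgam, for CD11b, was at 6.53 CPM titled Blood and 29.5 titled Control in members, against 109 CPM titled Blood and 81.0 titled Control. Zeb2, a transcription factor of terminal NK maturation, was at 26.1 CPM titled Blood and 69.7 titled Control in members, against 178 CPM titled Blood and 160 titled Control. Of 25 measured genes in the list of mature circulating NK cells, 8 were lower in both libraries and Klrg1 alone was higher, with medians of -0.92 titled Blood and -0.64 titled Control. With equal weight over bins of UMIs per cell these medians were -0.46 titled Blood and -0.14 titled Control. The lineage factors Eomes and Tbx21 were not past 2-fold lower in both libraries. Eomes was at 106 CPM titled Blood and 158 titled Control in members against 268 CPM titled Blood and 268 titled Control, and Tbx21 at 71.9 CPM titled Blood and 64.3 titled Control against 105 CPM titled Blood and 79.5 titled Control. Of 18 genes of ILC1 and tissue residency, Itga1, Inpp4b and Gpr34 were higher in both and 0 were lower. The medians of this list were -0.20 titled Blood and -0.11 titled Control, near those over all genes, -0.28 titled Blood and -0.19 titled Control.

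Immediate early genes, which are induced quickly and without new protein synthesis after stimulation, were lower in members as well. Fos was at 467 CPM in members titled Blood and 383 titled Control, against 1923 CPM titled Blood and 1292 titled Control, with ratios of 0.243 (0.214 to 0.275) titled Blood and 0.297 (0.261 to 0.336) titled Control. It was at 614 CPM in members titled Blood without the shared barcodes. Jun was at 438 CPM titled Blood and 423 titled Control in members, against 1533 CPM titled Blood and 1097 titled Control, and Dusp1, a phosphatase that ends MAP kinase signalling, at 348 CPM titled Blood and 304 titled Control, against 1234 CPM titled Blood and 806 titled Control. The orphan nuclear receptor gene Nr4a1, a reporter of antigen receptor signalling, was at 52.3 CPM titled Blood and 89.7 titled Control in members, against 211 CPM titled Blood and 215 titled Control. With equal weight over bins of UMIs per cell, the log2 ratio of Jun was -0.85 titled Blood and -0.89 titled Control, both short of 2-fold. That of Nr4a1 was -1.38 titled Blood and -0.78 titled Control. Of 25 measured genes in the list of immediate early and heat shock genes, 11 were lower in both libraries and 0 were higher, with medians of -1.33 titled Blood and -0.94 titled Control. These medians were -0.62 titled Blood and -0.59 titled Control with equal weight over bins of UMIs per cell. Ccl4, Ccl5, Cxcr4, Dusp1, Fos, Itga2, Klf2 and Tagap were the 8 genes of 120 that stayed past 2-fold lower in both libraries under all 15 alternative settings that could be compared.

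Metabolic and stress lists differed less between members and cells lacking granzymes. Of 30 genes of oxidative phosphorylation, 27 of hypoxia and glycolysis and 21 of the unfolded protein response and ATF4, 0 were past 2-fold in both libraries. The hypoxia list had a median of 0.01 titled Blood and 0.50 titled Control, and oxidative phosphorylation had 0.07 titled Blood and 0.10 titled Control. Receptors for interleukin-12, interleukin-18 and interleukin-21, which drive interferon gamma production, had medians of -1.06 titled Blood and -0.64 titled Control, and Il18rap and Ifngr2 were the 2 of 12 genes lower in both. Of 16 TGF-beta response genes, Itga1 was higher and Smad3 and Cd9 lower in both libraries. Of 9 cytokines, Spp1 and Tnfsf11, which encodes RANKL, were higher and Ifng lower in both. Of 26 cell cycle genes, 1 was lower in both libraries, with a median of -1.08 titled Blood and -0.05 titled Control.

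Part of the lower genes were markers of other cell types. The MHC class II gene H2-Aa was at 44.1 CPM in members titled Blood and 135 titled Control, against 426 CPM titled Blood and 952 titled Control, and Cd74, the invariant chain, was at 126 CPM titled Blood and 474 titled Control, against 894 CPM titled Blood and 2767 titled Control. Over the whole list of dendritic cell markers, 5 of 11 genes had 0 UMIs in members of each library and the summed level was 149 CPM titled Blood and 469 titled Control in members, against 1259 CPM titled Blood and 3122 titled Control in cells lacking granzymes. Macrophage and monocyte markers summed to 2167 CPM titled Blood and 2909 titled Control in members, against 2948 CPM titled Blood and 5530 titled Control, with 2 of 17 genes at 0 in members titled Blood and 1 of 17 titled Control. When cells with 5 or more UMIs of 9 genes of other cell types were left out, 31 members titled Blood and 17 titled Control remained. The log2 ratio of Cd74 was then -0.12 titled Blood and -0.54 titled Control, while Ccl5 was at -3.88 titled Blood and -2.83 titled Control, Klf2 at -2.61 titled Blood and -2.97 titled Control and Spp1 at 3.64 titled Blood and 3.17 titled Control. With this cut 84 genes were lower and 22 higher in members of both libraries, against 120 and 23 with all cells kept. The cut was on a count of UMIs and not a share, so it also removed deep cells with few such UMIs. The member titled Blood richest in granzymes was removed, with 6 of its 45458 UMIs from the 9 genes. The part of other cell types' RNA in the other lower genes was not tested apart from this.

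**Figure D4:**
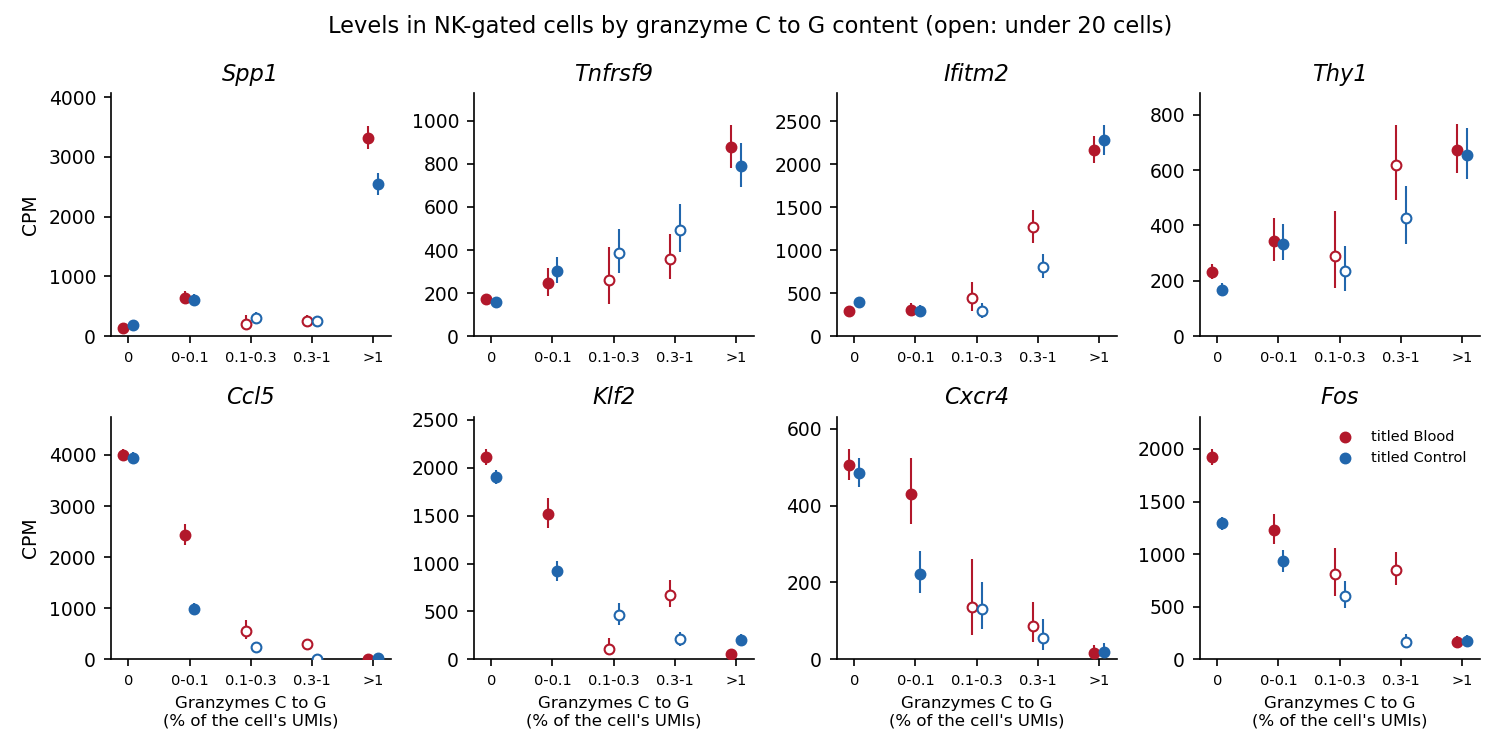
Levels in CPM of 8 genes in NK-gated cells binned by granzymes C to G as a percent of the cell's UMIs, titled Blood in red and titled Control in blue, with exact 95% counting intervals and open symbols for bins under 20 cells. From cells at 0 to cells above 1%, Spp1 reaches 3322 CPM titled Blood and 2543 titled Control, while Ccl5 ends at 2.91 CPM titled Blood and 26.4 titled Control.

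All NK-gated cells were also binned by granzyme content, which the gate selected on. Only the bins at 0, above 0 to 0.1% and above 1% held at least 20 cells in both libraries. Ccl5 was at 3999, 2441 and 2.91 CPM in these 3 bins titled Blood and at 3946, 991 and 26.4 CPM titled Control. Klf2 was at 2111, 1518 and 58.3 CPM titled Blood and at 1903, 918 and 205 CPM titled Control. In the bin of 0.3 to 1%, with under 20 cells, Ccl5 was at 301.4 CPM titled Blood and 0 titled Control and Klf2 at 675 CPM titled Blood and 208 titled Control, and titled Control the intervals of both genes overlapped those above 1%. In the bin of 0.1 to 0.3%, also with under 20 cells, Ccl5 was at 564 CPM titled Blood and 241 titled Control. Klf2 was there at 107 CPM titled Blood and 463 titled Control, so titled Blood it did not fall in order across the bins. Tnfrsf9 was highest above 1%, at 172, 247 and 877 CPM titled Blood and 161, 303 and 789 CPM titled Control. Ifitm2 was at 293, 305 and 2165 CPM titled Blood and 401, 296 and 2279 CPM titled Control, so that of these bins the richest stood apart. The bins also differed in depth, with median UMIs per cell of 3886, 5550 and 13602 titled Blood and 4547, 5649 and 11180 titled Control.

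Members of the 2 libraries were then compared with each other. Of 2712 genes that reached 50 CPM in 1 or both libraries and summed to 30 UMIs or more, 17 were at least 2-fold higher in members titled Blood than titled Control (0.627%) and 49 were lower (1.81%). Gzmb was at 1514 CPM titled Blood and 1923 titled Control, Prf1 at 890 CPM titled Blood and 763 titled Control, Klf2 at 253 CPM titled Blood and 253 titled Control and Tnfrsf9 at 637 CPM titled Blood and 563 titled Control. None of these 4 was past 2-fold. Without the shared barcodes, members titled Blood had 1208 CPM of Gzmb, 626 of Prf1, 332 of Klf2 and 495 of Tnfrsf9. Prf1 and Tnfrsf9 were then below their levels titled Control. Without cells carrying RNA of other cell types, the log2 ratio of Gzmb was -1.03 and that of Tnfrsf9 turned to -0.82. Spp1 was at 2004 CPM titled Blood and 1252 titled Control, and at 1301 CPM titled Blood without the shared barcodes.

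Proliferation genes were lower in members titled Blood. Of 27 measured cell cycle genes 14 were at least 2-fold lower and 0 higher, with a median of -1.20, against a median of -0.12 and 1 lower gene in cells lacking granzymes. At the filter used for lists, 3.89% of all 7436 genes were lower and 1.76% higher in members, with a median of -0.05. In cells lacking granzymes, 86 of all 8030 genes were lower and 99 higher, with a median of 0.03. Top2a, a topoisomerase of dividing cells, was at 19.6 CPM titled Blood and 96.4 titled Control. Mki67, the proliferation marker, was detected in 1 member titled Blood and 5 titled Control, at 1.63 CPM titled Blood and 46.9 titled Control. The replication factors Mcm5 and Mcm7 followed, with Mcm5 at 8.17 CPM titled Blood and 53.6 titled Control and Mcm7 at 16.3 CPM titled Blood and 60.3 titled Control. The tubulin gene Tubb5 was at 122 CPM titled Blood and 350 titled Control, with a ratio of 0.350 (0.267 to 0.455). Part of these transcripts lay in few cells. Cell cycle genes passed 0.5% of UMIs in 1 member titled Blood and 5 titled Control, which held 101 of the list's 505 UMIs titled Blood and 53.7% of its 1438 titled Control. Without them, the list summed to 673 CPM titled Blood and 992 titled Control, against 825 CPM titled Blood and 1926 titled Control with them. The median of the list was -0.97 without the shared barcodes and -0.65 without cells carrying RNA of other cell types.

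Interferon-stimulated genes were lower titled Blood in members and in the other NK cells alike. In members 9 of 29 were at least 2-fold lower and 0 higher, with a median of -0.69, and in cells lacking granzymes 13 of 29 were lower, with a median of -0.95. Over all 8030 genes read in cells lacking granzymes, 86 were lower, with a median of 0.03. The median in members was -0.45 without the shared barcodes and -0.20 without cells carrying RNA of other cell types. Irf7, the transcription factor that amplifies type I interferon, was at 35.9 CPM titled Blood and 91.1 titled Control in members. Isg15, a ubiquitin-like interferon product, was at 71.9 CPM titled Blood and 117 titled Control, and its log2 ratio turned to 1.27 without cells carrying RNA of other cell types. Cxcl10, an interferon-induced chemokine, was at 32.7 CPM titled Blood and 297 titled Control, with 45.0% of its UMIs titled Blood and 55.0% titled Control in 1 cell each. Rsad2, for viperin, was at 45.7 CPM titled Blood and 216 titled Control, but a single member held 91.3% of its UMIs titled Control. Without the top cell of each library the log2 ratio of Rsad2 was 0.39, against -2.12 with them.

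**Figure D5:**
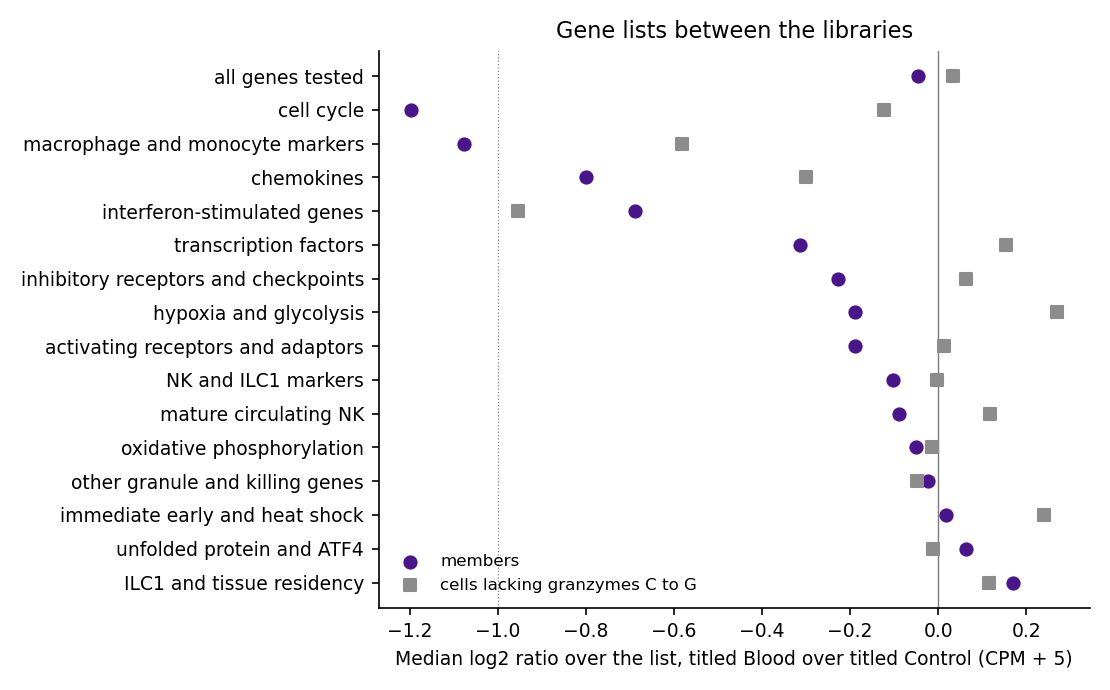
Median log2 ratio of each gene list, titled Blood over titled Control, in members (circles) and in NK-gated cells lacking granzymes C to G (squares), with a dotted line at 2-fold lower. The cell cycle list is at -1.20 in members and -0.12 in the other cells, while interferon-stimulated genes are at -0.69 and -0.95.

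Genes higher in members titled Blood included 2 myeloid transcripts. S100a8 and S100a9, the calprotectin genes of neutrophils, had levels of 199 CPM for S100a8 and 149 CPM for S100a9 in members titled Blood, and both were at 0 in members titled Control. Of the S100a8 UMIs, 86.1% lay in 1 cell, and without the shared barcodes S100a8 was at 31.6 CPM. The whole neutrophil list summed to 361 CPM titled Blood and 18.8 titled Control in members, and to 146 CPM titled Blood and 24.3 titled Control in cells lacking granzymes, with 3 of 8 genes at 0 in members titled Blood and 6 of 8 titled Control. Cxcl2, a neutrophil-attracting chemokine, was at 495 CPM titled Blood and 61.6 titled Control in members, with a ratio of 8.03 (5.88 to 11.2), and at 524 CPM titled Blood and 194 titled Control in cells lacking granzymes. Macrophage and monocyte markers went the other way in members, with 7 of 13 genes lower titled Blood and a median of -1.08, which was 0.17 after called doublets were removed. Egr1, an immediate early transcription factor, was at 154 CPM titled Blood and 56.3 titled Control in members and 264 CPM titled Blood and 122 titled Control in cells lacking granzymes. Ifitm1, at 2961 CPM titled Blood and 895 titled Control, was at 1152 CPM titled Blood without the shared barcodes. The part of other cell types' RNA in these differences was not tested.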

How the data were processed

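Single-cell RNA from 2 tumour libraries was analysed from the deposited matrices of UMI counts per gene and barcode, which were not normalized. Per the submitters' processing notes, the authors used Cell Ranger 3.1.0 and the mm10 build. No further upstream setting is stated there. Counts were summed over the cells of each population and divided by the summed UMIs to give CPM. Log2 ratios used a pseudocount of 5 CPM, and a gene was called past 2-fold. Genes needed 50 CPM and 30 UMIs, or 10 CPM and 10 UMIs within lists. Each group held 1 library, so no test across samples was made. Intervals are exact Poisson, Clopper-Pearson or conditional binomial intervals. Detection shares were also computed after each cell was thinned to 2000 UMIs.

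The members, gene lists and rules were chosen with earlier results of these data known. Named genes were all granzymes, Prf1, the genes of the gate, the 12 highest and lowest between libraries, the 15 highest and lowest between members and other NK-gated cells, and up to 4 genes of each list beside its defining genes. Klrg1, S1pr1, Cd69, Spp1 and Tnfrsf9 were also looked up after their values were seen. The CD8 T and macrophage gates were set after the data were seen.

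Doublets were called with Scrublet (scanpy 1.11.5) at 0.8% per 1000 cells. It called 2.38% of kept cells titled Blood and 1.80% titled Control, where the assumed rate gives 9.65% titled Blood and 7.58% titled Control. Called cells were kept, with 1 member titled Blood and 4 titled Control among them, and removed as an alternative. Other tools were Python 3.11.15, numpy 2.4.6, scipy 1.17.1, pandas 2.3.3 and matplotlib 3.10.9. The scripts were tested on simulated data.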

Additional observations from a re-analysis of the deposited data

How the results depend on the processing

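No paired analysis was possible because each group held 1 library and nothing was tested across samples. Counting error covers only part of the uncertainty, and members numbered 56 titled Blood and 65 titled Control. Leaving out barcodes found in both libraries, cells with RNA of other cell types, or the cell with the most UMIs of a gene was chosen after seeing the data. Some settings left few members. Without RNA of other cell types, 31 titled Blood and 17 titled Control remained. Leaving out cells with 3 or more cell cycle UMIs, called the cell cycle cut below, left 10 titled Blood and 5 titled Control. The median member had 5 such UMIs titled Blood and 9 titled Control, so this cut removed most members. Cell cycle genes passed 0.5% of UMIs in only 1 member titled Blood and 5 titled Control. Both cuts were on counts, so deep cells were removed more readily. Equal weight over bins of UMIs per cell moved 20 list medians, while 24 stayed the same. It moved 69 log2 ratios of named genes, while 37 stayed the same, with each list and gene counted once per library. It used only bins with at least 5 members and at least 5 cells lacking granzymes, so not all members counted. With it the log2 ratio of Ctsg titled Blood went from 5.70 to 0.36. The causes were not tested. Over named genes, 1900 log2 ratios stayed within their counting interval under an alternative, 437 moved and 30 reversed. The minimum of 10 CPM and that of 100 CPM cannot change a gene's ratio, and each gave 133 of the 1900. A ratio counted as reversed only if it was past 2-fold in the report, so other turns of sign are not among the 30.

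With a minimum of 1 granzyme UMI, members were 25.1% of NK-gated cells titled Blood and 27.1% titled Control, and 0.740% of kept cells titled Blood and 1.06% titled Control. With 10 UMIs they were 12.6% of NK-gated cells titled Blood.

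Genes lower in members than in cells lacking granzymes numbered 120 in the report. The count was 66 with 1 granzyme UMI, 76 with a pseudocount of 20 CPM, 65 at 100 CPM and 215 at 10 CPM. It was 66 centred on the median gene and 50 with the cell cycle cut. Genes higher in members numbered 23 in the report. Their count was 14 with a pseudocount of 20 CPM, 10 at 100 CPM, 39 at 10 CPM and 35 centred. It was 10 with the cell cycle cut, 9 with equal weight over bins of UMIs per cell and 15 without shared barcodes. Between libraries, 49 genes were lower in members titled Blood in the report. That count was 32 without doublets, 27 with a pseudocount of 20 CPM, 19 at 100 CPM and 91 at 10 CPM. It was 19 with the cell cycle cut and 24 without RNA of other cell types. Of 17 higher, it was 10 with 20 CPM, 35 at 10 CPM, 30 with the mean of each cell's CPM, 42 without cycling cells and 52 without RNA of other cell types.

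Titled Control, the chemokine median of members over cells lacking granzymes was -0.61 with at least 4 NK receptor UMIs and -2.39 without doublets. It was -0.90 with the mean of each cell's CPM and -4.19 with the cell cycle cut. Titled Blood it was -3.86 with the cell cycle cut and -0.98 with equal weight over bins of UMIs per cell. It was -2.78 there without RNA of other cell types. The immediate early median titled Blood was -0.72 with the cell cycle cut and -0.62 with equal weight over bins of UMIs per cell. It was -0.88 without RNA of other cell types and -1.02 without shared barcodes. Titled Control it was -0.59 with that weighting. The mature NK median with that weighting was -0.46 titled Blood and -0.14 titled Control.

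Some values reversed between libraries. The macrophage list was 0.17 without doublets and 0.074 with the cell cycle cut. Rsad2 was 1.21 without doublets, 3.11 without RNA of other cell types and 0.39 without the top cell. With the cell cycle cut, Klrg1 was -4.07, Ifitm1 -0.47, Irf7 0.28, Mcm5 2.08, Ctsg -6.22 and Cd74 1.21. Without RNA of other cell types, Stmn1 was 1.43, Klrg1 -1.07, Ifitm1 -0.36, Ctsg -4.40, Hist1h2ap 2.39 and Ly6c2 -0.10. Without shared barcodes, Klrg1 was -0.22 and Ctsg -3.67, and without its top cell Ctsg was -0.99.

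Between members and cells lacking granzymes, Fcrl6, Tmsb15a and Klrg1 were each at -1.62 titled Blood with the cell cycle cut. Gzmb was at -0.013 there, Ccl3 at 0.11 and Cd74 at 1.27. Titled Control with this cut, Zeb2 was 0.83, Itga1 -0.39 and C1qtnf6 -0.17. Without RNA of other cell types, Klrg1 was -1.09 titled Blood and -0.68 titled Control, and Zbtb32 was -0.47 titled Control.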
